A study of Mus musculus and Homo sapiens with 19 samples.

Results

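The nuclear-encoded subunits of the respiratory chain were followed across 3 experiments in cultured cells. Genes were taken by symbol: NDUFA, NDUFB, NDUFC, NDUFS and NDUFV genes for complex I, SDHA to SDHD for complex II, 8 UQCR genes for complex III, 10 COX genes for complex IV and ATP5 genes for complex V, with assembly factors and pseudogenes left out. The rule found 80 genes in any table and 74 in all of them: 76 of 24421 genes in the 4T1 knockdown table, 78 of 57992 in the MDA-MB-231 table and 76 of 55573 in the co-culture tables. NDUFA4 was counted in complex IV, where it is now placed. NDUFA4L2, ATP5S, ATP5SL and ATP5L2, which the rule also takes, are not counted as subunits of complexes I to V here.

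The series held 19 libraries. In the knockdown, 3 libraries of 4T1, a mouse mammary carcinoma line, with a PHGDH shRNA (shPHGDH) were set against 3 with a scrambled shRNA (shSCR), both from the pLKO vector. In MDA-MB-231, a human breast carcinoma line, 3 libraries labelled PHGDH OE, from cells given a PHGDH cDNA in pLHCX, were set against 3 control libraries (CTRL). In co-culture, 1 library each came from 4T1 grown with Bend3, EMT6.5 grown with Bend3, Bend3 grown with 4T1 and Bend3 grown with EMT6.5, all sorted before RNA extraction, and from 4T1, EMT6.5 and Bend3 alone. EMT6.5 is a second mouse mammary tumour line and Bend3 a mouse endothelial line. The labels do not say whether replicates were separate cultures or whether the shRNA lines were clones or pools, so p-values measure only the spread between these libraries. In bulk libraries, fewer cells with a transcript and less of it per cell cannot be told apart.

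PHGDH, the enzyme that starts serine synthesis, was read first as a check of the labels. Phgdh had 20.7, 20.21 and 21.7 CPM (counts scaled to a common library size, with edgeR TMM factors throughout) in shPHGDH, against 167, 173 and 163 CPM in shSCR (log2 fold change -2.999, edgeR adjusted p = 5.16e-28). In MDA-MB-231, PHGDH had 5.99, 4.53 and 5.71 CPM in the libraries labelled PHGDH OE, against 15.5, 15.7 and 18.3 CPM in CTRL (log2 fold change -1.61, edgeR adjusted p = 5.76e-10). PHGDH thus ran against the label there, and every direction below is that of the libraries labelled PHGDH OE. Assigned counts were 12.7 to 20.5 M per library in the knockdown, 19.5 to 23.8 M in MDA-MB-231 and 4.27 to 7.67 M in co-culture. One library, shPHGDH replicate 1, stood apart, with 16828 CPM of the ribosomal RNA gene Rn45s against 1831 to 2280 CPM in the other 5 knockdown libraries. Endothelial markers summed to 9866 and 10512 CPM in Bend3 grown with 4T1 and with EMT6.5 and 7947 CPM in Bend3 alone. In EMT6.5 alone, the 8 epithelial markers summed to 834 CPM, against 1642 CPM in 4T1 alone. The keratins Krt18, Krt7 and Krt8 had 407, 250.1 and 163 CPM in EMT6.5 alone, whereas Cdh1 and Epcam had 0.13 and 0.261 CPM and Cldn7 and Esrp1 were at 0. The 6 fibroblast markers summed to 3058 CPM in EMT6.5 alone. Of these, Col1a1 and Col1a2 had 1415 and 1607 CPM, Pdgfrb 24.8 CPM and Pdgfra 10.2 CPM, and Dcn and Lum were at 0.

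The respiratory chain carries electrons from NADH and succinate to oxygen and uses the energy to pump protons across the inner mitochondrial membrane. Complex I oxidises NADH, complex II oxidises succinate and also belongs to the TCA cycle, complex III passes electrons to cytochrome c, complex IV reduces oxygen, and complex V makes ATP from the returning protons. Complexes I, III, IV and V combine nuclear subunits with subunits encoded in mitochondrial DNA, whereas complex II is wholly nuclear. Nuclear respiratory factor 1 (NRF1), the ETS factor GABP and YY1 are known to bind promoters of many of these genes.

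Promoters are shown for 6 subunit genes that were higher in shPHGDH libraries and carried one of those motifs, chosen after their values were seen. RefSeq windows on GRCm38.p6, from 250 bases before to 50 after the start, were found for 63 of 75 mouse genes of complexes I to V. On either strand, the NRF1 motif (GCGCA, any base, then GCGC) was in 26.5% of the 68 windows of these genes and in 4.6% of all 32851 windows. The ETS motif CCGGAAG was in 25.0% of the subunit windows and in 8.86% of all windows. The YY1 motif was searched in a pair of forms, AAGATGG, in 16.2% of subunit windows and 6.34% of all, and a longer one in which AAGATGG is followed by CGGC, and which holds the shorter one, in 5.88% and 0.633%. The motifs were chosen with results known. They were also in windows of genes lower in shPHGDH, among them Ndufa11 (NRF1), Sdhb and Uqcr11 (ETS) and Ndufs7 (longer YY1 form). Whether motifs went with the direction of a shift was not tested. Median GC content was 58.5% in the subunit windows and 52.67% in all windows, and its part in these shares was not tested. A match is a run of letters and not a measured site. Capitals below mark the motif matches in windows at Ndufs4 chr13:114388045-114388344 (- strand), Sdha chr13:74350191-74350490 (- strand), Sdhd chr9:50603800-50604099 (- strand), Uqcrc1 chr9:108936398-108936697 (+ strand), Cox8a chr19:7217567-7217866 (- strand) and Atp5c1 chr2:10080383-10080682 (- strand).
Ndufs4: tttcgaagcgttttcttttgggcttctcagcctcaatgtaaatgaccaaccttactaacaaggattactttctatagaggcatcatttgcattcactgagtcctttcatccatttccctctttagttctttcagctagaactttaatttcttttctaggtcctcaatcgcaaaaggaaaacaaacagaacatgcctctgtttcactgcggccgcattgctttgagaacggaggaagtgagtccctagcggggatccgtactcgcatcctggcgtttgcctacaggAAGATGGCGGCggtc
Sdha: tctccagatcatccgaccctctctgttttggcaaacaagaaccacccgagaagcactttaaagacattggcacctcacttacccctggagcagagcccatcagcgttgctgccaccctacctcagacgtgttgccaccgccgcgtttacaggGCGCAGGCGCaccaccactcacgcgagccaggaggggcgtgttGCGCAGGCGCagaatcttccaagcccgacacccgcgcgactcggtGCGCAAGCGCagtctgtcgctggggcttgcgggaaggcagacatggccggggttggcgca
Sdhd: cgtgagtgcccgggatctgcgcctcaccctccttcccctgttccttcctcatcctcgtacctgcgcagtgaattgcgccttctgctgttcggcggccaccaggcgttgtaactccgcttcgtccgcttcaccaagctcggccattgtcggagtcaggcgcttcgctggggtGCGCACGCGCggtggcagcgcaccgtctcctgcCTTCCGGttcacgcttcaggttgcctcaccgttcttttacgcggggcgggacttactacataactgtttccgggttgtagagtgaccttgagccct
Uqcrc1: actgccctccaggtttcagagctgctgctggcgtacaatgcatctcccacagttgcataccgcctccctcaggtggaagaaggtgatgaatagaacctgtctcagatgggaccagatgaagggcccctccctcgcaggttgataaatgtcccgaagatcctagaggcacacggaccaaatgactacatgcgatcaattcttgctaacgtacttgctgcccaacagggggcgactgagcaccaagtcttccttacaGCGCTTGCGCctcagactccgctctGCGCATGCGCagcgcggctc
Cox8a: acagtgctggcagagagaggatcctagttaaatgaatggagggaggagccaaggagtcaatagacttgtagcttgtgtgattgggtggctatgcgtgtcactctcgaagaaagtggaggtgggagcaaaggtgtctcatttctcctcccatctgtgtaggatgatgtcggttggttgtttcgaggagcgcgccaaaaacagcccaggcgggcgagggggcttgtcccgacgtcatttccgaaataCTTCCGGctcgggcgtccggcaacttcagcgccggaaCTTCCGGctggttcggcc
Atp5c1: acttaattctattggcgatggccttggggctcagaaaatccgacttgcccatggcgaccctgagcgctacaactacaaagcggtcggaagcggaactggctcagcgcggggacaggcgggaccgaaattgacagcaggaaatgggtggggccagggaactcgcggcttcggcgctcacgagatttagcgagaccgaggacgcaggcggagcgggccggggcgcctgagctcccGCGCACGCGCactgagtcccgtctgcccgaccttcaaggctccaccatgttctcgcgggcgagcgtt

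In 4T1, the subunit genes moved in both directions in shPHGDH against shSCR, and the balance differed between complexes. Of 72 genes of complexes I to V tested, 19 were higher, 21 lower and 32 not called, at an edgeR adjusted p under 0.05. Over all 11568 genes tested, 59.7% were called, 30.1% higher and 29.6% lower, so the share called among the subunits was near the background. In complex I the called genes were mostly lower, with 2 higher and 14 lower of 34 and a median log2 fold change of -0.056. Complex II had 2 higher and 2 lower of 4 (median 0.14), complex III 3 higher and 2 lower of 8 (median -0.014), complex IV 6 higher and 1 lower of 11 (median 0.12) and complex V 6 higher and 2 lower of 15 (median 0.046). Whether complexes differed from each other was not tested. Shifts were small: at a further limit of 1.2-fold, 9 were higher and 2 lower. Over all 11568 genes, 2028 were higher and 1945 lower at that limit, a larger share than among the subunits. The count of lower genes depended on the lane and the tool, and 2 shSCR libraries were run on another lane. There were 20 higher and 11 lower with lane in the model and 19 higher and 10 lower with DESeq2. Without shSCR replicate 1, 19 were higher and 13 lower. Over all genes, lower calls fell from 3421 to 2791 with lane in the model, 2552 with DESeq2 and 3129 without shSCR replicate 1. Ndufs5, with next to no counts, did not pass the filter.

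**Figure D1:**
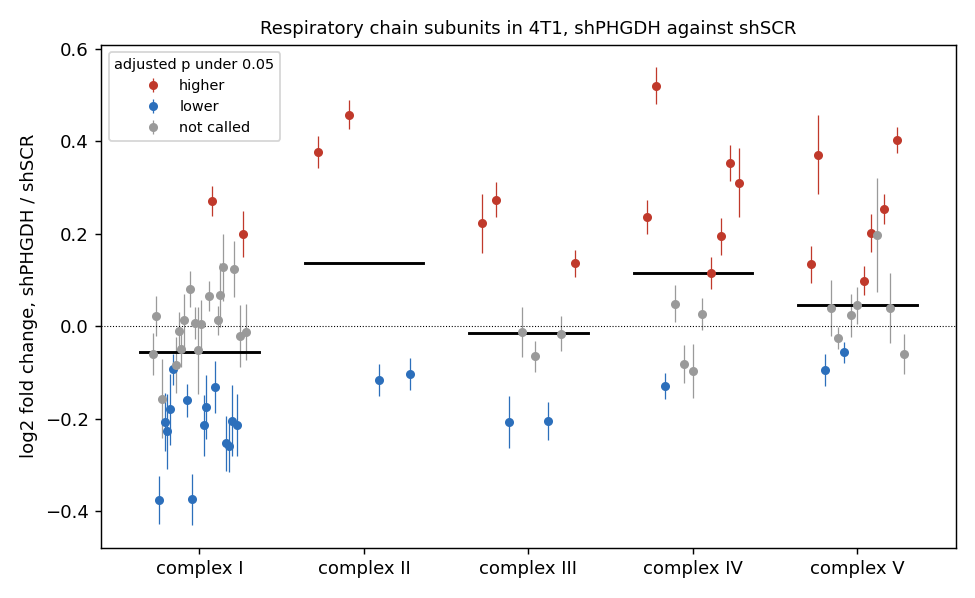
Log2 fold change (y axis, shPHGDH over shSCR) of each tested subunit gene in 4T1, by complex (x axis). Points are genes with their standard error, coloured by call, and black lines are medians, which run from -0.056 in complex I to 0.14 in complex II.

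The complex I genes that were lower were accessory subunits, with the exception of the core subunit Ndufs7 (log2 fold change -0.13, edgeR adjusted p = 0.0443). Ndufa13, an accessory subunit also known as GRIM-19, had 38.8, 42.2 and 40.9 CPM in shPHGDH, against 54.0, 49.8 and 54.1 CPM in shSCR. All 3 shPHGDH libraries lay below all 3 shSCR libraries (log2 fold change -0.38 ± 0.05 SE, edgeR adjusted p = 4.55e-07). Ndufb7, an accessory subunit of the membrane arm, had 41.3, 44.1 and 37.1 CPM in shPHGDH, against 51.6, 54.1 and 51.5 CPM in shSCR, again with no overlap (log2 fold change -0.37, edgeR adjusted p = 1.44e-06). Ndufc2, a further membrane-arm subunit, was lower by the same test (log2 fold change -0.26, edgeR adjusted p = 2.56e-04). The core subunits Ndufs1 and Ndufv1, which take electrons from NADH, did not pass the test: the log2 fold change was 0.066 for Ndufs1 and -0.050 for Ndufv1. Ndufb9, a membrane-arm accessory subunit, went the other way with 206.7, 206.3 and 207.5 CPM in shPHGDH, against 178.6, 173.0 and 163.2 CPM in shSCR (log2 fold change 0.27, edgeR adjusted p = 7.35e-08). Ndufs4, a matrix-arm subunit, was also higher (log2 fold change 0.20, edgeR adjusted p = 1.02e-03). Ndufa13 overlaps Tssk6 on the other strand and Ndufb9 overlaps Gm49356 on the same strand, and reads from such pairs may not be told apart.

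Complex II divided into 2 genes higher and 2 lower, and its summed level was higher. Sdha, the flavoprotein that oxidises succinate, had 203, 202 and 200 CPM in shPHGDH, against 151, 143 and 147 CPM in shSCR. The groups lay far apart with no overlap (log2 fold change 0.46 ± 0.03 SE, edgeR adjusted p = 1.12e-12). Sdhd, a membrane anchor, had 143, 148 and 145 CPM in shPHGDH, against 113, 115 and 108 CPM in shSCR (log2 fold change 0.38, edgeR adjusted p = 2.27e-10). The iron-sulphur subunit Sdhb and the other anchor, Sdhc, were lower, with log2 fold changes of -0.12 (edgeR adjusted p = 4.97e-03) and -0.10 (edgeR adjusted p = 1.02e-02). Summed over the 4 genes, complex II had 553, 560.0 and 557 CPM in shPHGDH, against 495, 481 and 480 CPM in shSCR.

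Of 8 complex III genes, 3 were higher and 2 lower, with small subunits in both directions. Uqcrfs1, the Rieske iron-sulphur protein, had 117, 127 and 115 CPM in shPHGDH, against 99.5, 102 and 95.5 CPM in shSCR, without overlap (log2 fold change 0.27, edgeR adjusted p = 5.08e-07). The small subunit Uqcrb (0.22) and the core protein Uqcrc1 (0.14) were higher as well, on the log2 fold change scale. The small subunits Uqcr11 (-0.21) and Uqcrq (-0.20) were lower on the same scale, and Uqcr10, Uqcrh and Uqcrc2 were not called.

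Complex IV held the gene with the highest log2 fold change of the 72. Cox6c, a small membrane subunit, had 115, 122 and 109 CPM in shPHGDH, against 82.4, 81.2 and 76.5 CPM in shSCR (log2 fold change 0.52 ± 0.04 SE, edgeR adjusted p = 7.36e-12). Ndufa4 (0.35), Cox7c (0.31), Cox8a (0.24), Cox7a2 (0.20) and Cox5a (0.12) were also higher, as log2 fold changes. Cox4i1, the regulatory subunit that takes part in early assembly, had 270.2, 280.0 and 269.9 CPM in shPHGDH, against 303, 300.2 and 293 CPM in shSCR, and was lower (log2 fold change -0.13, edgeR adjusted p = 2.41e-04).

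In complex V, genes of the stalks and the rotor were among the 6 higher, and the 2 lower genes were Atp5b and Atp5d. Atp5d also belongs to the central stalk, so stalk genes went both ways. Atp5c1, the gamma subunit of the central stalk, had 309.7, 306.4 and 300.5 CPM in shPHGDH, against 230.4, 237 and 226 CPM in shSCR (log2 fold change 0.40 ± 0.03 SE, edgeR adjusted p = 1.37e-12). Atp5f1, subunit b of the outer stalk, was higher (log2 fold change 0.25, edgeR adjusted p = 9.28e-08). Of the genes for the c subunit of the rotor, Atp5g2 (0.37) and Atp5g3 (0.099) were higher and Atp5g1 (0.039) was not called, as log2 fold changes. The catalytic beta subunit Atp5b was lower by a small margin, with 1510, 1493 and 1516 CPM in shPHGDH, against 1575, 1586 and 1535 CPM in shSCR (log2 fold change -0.056, edgeR adjusted p = 0.0393). The alpha subunit Atp5a1 was not called (log2 fold change -0.025). Atp5s, a coupling factor outside the complexes as counted, was lower (log2 fold change -0.50, edgeR adjusted p = 2.56e-03).

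**Figure D2:**
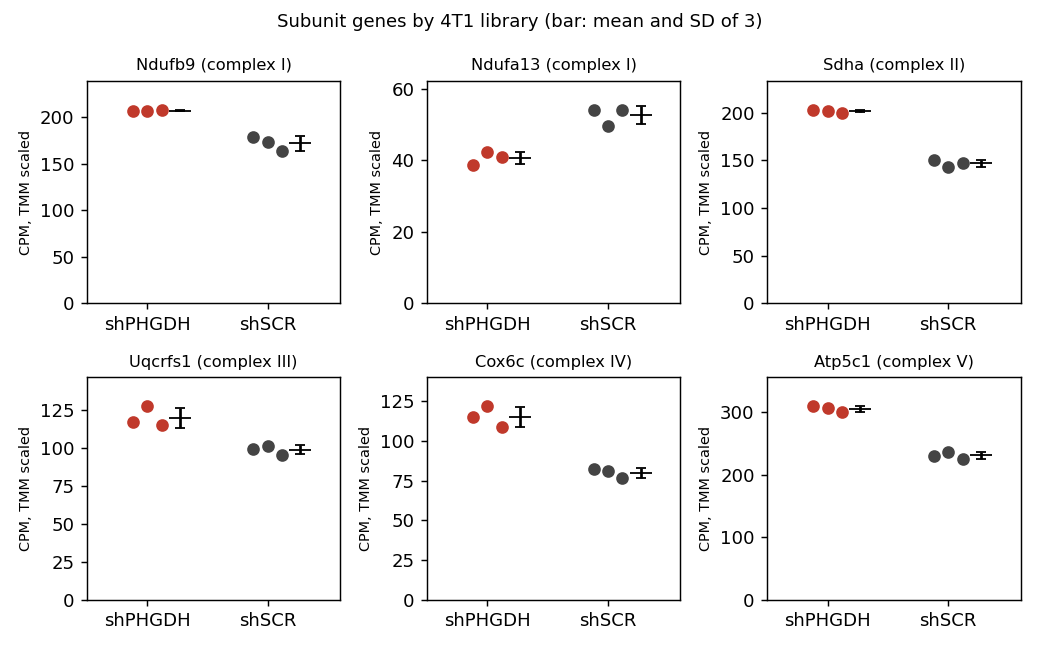
CPM (y axis, TMM scaled, from 0) of 6 subunit genes in each 4T1 library, shPHGDH left of shSCR, with the mean and SD of 3 libraries beside the points. In each panel the groups do not overlap, which was a condition for naming the largest shifts. Ndufa13 alone of the 6 is lower in shPHGDH.

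The shifts of the subunit genes followed those of their chromosomal surroundings. Across 74 genes with a position, Atp5s and Atp5sl included, the log2 fold change correlated with the median of all tested genes on the same chromosome (Pearson r = 0.696, Spearman rho = 0.72) and with the median of the 50 neighbouring genes (r = 0.776, rho = 0.727). These are descriptions across genes, which share the same 6 libraries. The same correlations were not computed for other genes, so whether they are particular to the subunits was not tested. Chromosomes 13 and 15 had medians of 0.25 and 0.28, and 8 of the 10 genes there were higher and 0 lower. Chromosomes 4 and 8 had medians of -0.22 and -0.25, and 0 of the 6 there were higher and 5 lower. These chromosomes were singled out after the values were seen. The share of all tested genes called was not computed for these chromosomes or for the others. The counts by chromosome are therefore a description and not a result about the subunits. Elsewhere, 11 of 58 (with Atp5s and Atp5sl among them) were higher and 17 lower, among them 0 higher and 11 lower of 27 complex I genes. After the median of the neighbours was subtracted, 9 complex I genes lay above 0 and 25 below, and 13 complex V genes lay above and 2 below. Complex II had 3 above and 1 below, complex III 4 and 4, and complex IV 6 and 5. The same split over all tested genes was not computed, and whether complexes differed in it was not tested. Sdha sat on chromosome 13 and Cox6c on chromosome 15, with neighbour medians of 0.34 and 0.40. Atp5c1, on chromosome 2, matched neighbours with a median of 0.41, whereas Ndufa4, on chromosome 6, had neighbours at 0.023.

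**Figure D3:**
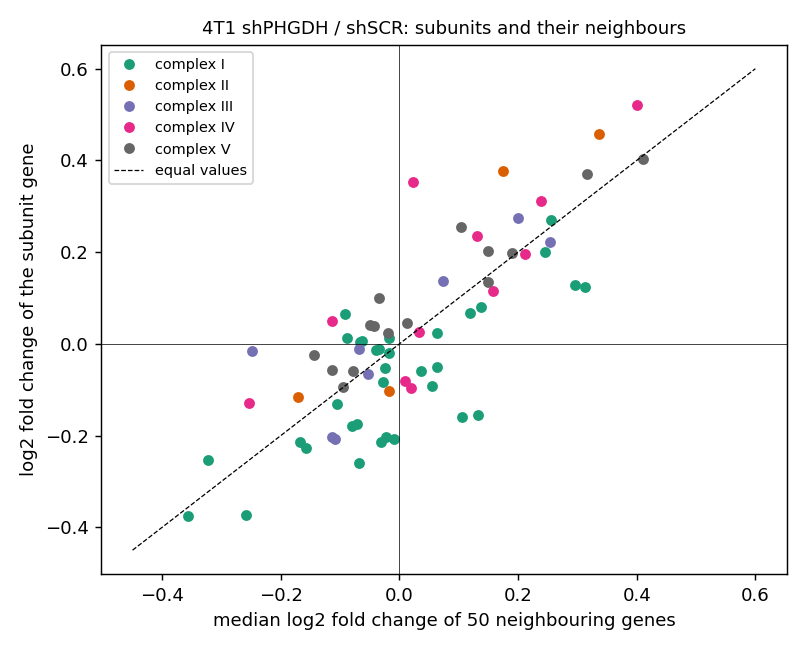
Log2 fold change in 4T1 (shPHGDH over shSCR) of each subunit gene (y axis) against the median of its 50 neighbouring genes (x axis), coloured by complex. Points gather along the dashed line of equal values, and most complex I genes lie below it (25 of 34).

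Other genes of the pathway were split in the knockdown. Complex I assembly factors were higher in 3 and lower in 6 of 16, with Ndufaf7, a methyltransferase, the lowest (log2 fold change -0.47). Sdhaf2, which helps attach flavin to Sdha, was higher (log2 fold change 0.59, edgeR adjusted p = 2.86e-11), as 1 of 4 complex II assembly factors, with 2 lower. TCA cycle genes were higher in 6 and lower in 6 of 16. Ppargc1b, a coactivator of mitochondrial genes, averaged 5.87 CPM in shPHGDH and 1.41 CPM in shSCR (log2 fold change 2.06, edgeR adjusted p = 1.26e-10), in a list of 13 biogenesis factors with 4 higher and 4 lower.

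In MDA-MB-231, the subunit genes were mostly higher in the libraries labelled PHGDH OE. Of 74 genes of complexes I to V tested, 38 were higher, 4 lower and 32 not called, with a median log2 fold change of 0.19. Over all 17663 genes tested, 44.5% were called, 21.6% higher and 22.9% lower, against 51.4% higher and 5.41% lower among the subunits. Complex I had 16 higher and 1 lower of 36 (median 0.15), complex II 4 higher and 0 lower of 4 (median 0.25), complex III 6 higher and 0 lower of 8 (median 0.22), complex IV 4 higher and 2 lower of 11 (median 0.016) and complex V 8 higher and 1 lower of 15 (median 0.25). Summed over complexes I to V, the libraries labelled PHGDH OE had 8088, 8489 and 8240 CPM, against 7012, 7191 and 7626 CPM in CTRL, with no overlap. With library totals in place of TMM scaling, 30 were higher and 7 lower, and at a further limit of 1.2-fold 19 were higher and 1 lower. Over all 17663 genes, 3055 were higher and 4895 lower with library totals, and 2969 higher and 3377 lower at 1.2-fold. The 4 lower genes became 7 without the library labelled PHGDH OE replicate 2 and 2 without CTRL replicate 3.

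The largest shifts lay in single subunits. COX5A, a matrix-facing subunit of complex IV, had 131, 133 and 134 CPM in the libraries labelled PHGDH OE, against 67.4, 70.8 and 77.8 CPM in CTRL (log2 fold change 0.89 ± 0.06 SE, edgeR adjusted p = 2.46e-10). NDUFB11, an accessory subunit of the complex I membrane arm, had 83.3, 84.8 and 86.4 CPM in the libraries labelled PHGDH OE, against 42.2, 47.2 and 51.4 CPM in CTRL (log2 fold change 0.86, edgeR adjusted p = 3.07e-09). ATP5D, the delta subunit of the central stalk, had 63.9, 65.8 and 73.5 CPM in the libraries labelled PHGDH OE, against 36.6, 44.1 and 43.0 CPM in CTRL (log2 fold change 0.72, edgeR adjusted p = 1.71e-07). None of these 3 genes had overlapping groups, which was a condition for naming the largest shifts. In complex I, NDUFA9 (0.52) and NDUFS7 (0.51) were next by log2 fold change, while NDUFS1 (0.059) and NDUFV1 (0.15) were not called. SDHA (0.29), SDHC (0.28) and SDHB (0.23) led complex II, and UQCR11 (0.37), UQCRC1 (0.32) and UQCRFS1 (0.25) led the genes named in complex III.

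The 4 lower subunits were COX6C, COX7A2, NDUFV2 and ATP5A1, the alpha subunit of the complex V head. COX6C had 65.4, 75.0 and 57.8 CPM in the libraries labelled PHGDH OE, against 84.9, 90.5 and 90.4 CPM in CTRL (log2 fold change -0.42, edgeR adjusted p = 1.32e-04). COX7A2 (-0.21), NDUFV2 (-0.25) and ATP5A1 (-0.19) were also lower, as log2 fold changes. The catalytic beta subunit ATP5B went the other way, with 999, 979.8 and 1066 CPM in the libraries labelled PHGDH OE, against 735, 720.3 and 764 CPM in CTRL (log2 fold change 0.46, edgeR adjusted p = 8.33e-07). All 3 c-subunit genes were higher, by log2 fold changes of 0.40 for ATP5G1, 0.50 for ATP5G2 and 0.25 for ATP5G3.

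Mitochondrially encoded subunits moved away from the nuclear ones, but the CTRL libraries differed widely. Of 12 tested, 10 were lower and 0 higher, with a median log2 fold change of -0.44. Summed, they had 14348, 13421 and 14787 CPM in the libraries labelled PHGDH OE, against 14005, 23007 and 19279 CPM in CTRL. CTRL replicate 1 lay within the range of the libraries labelled PHGDH OE, so the groups overlapped, and they did so for each gene but MT-ND1. MT-ND1, a core complex I subunit, had 512, 489.9 and 609 CPM in the libraries labelled PHGDH OE, against 626, 1122 and 905 CPM in CTRL (log2 fold change -0.72, edgeR adjusted p = 5.93e-05). Without CTRL replicate 2, 6 of 12 were lower, and DESeq2 called 2 lower.

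**Figure D4:**
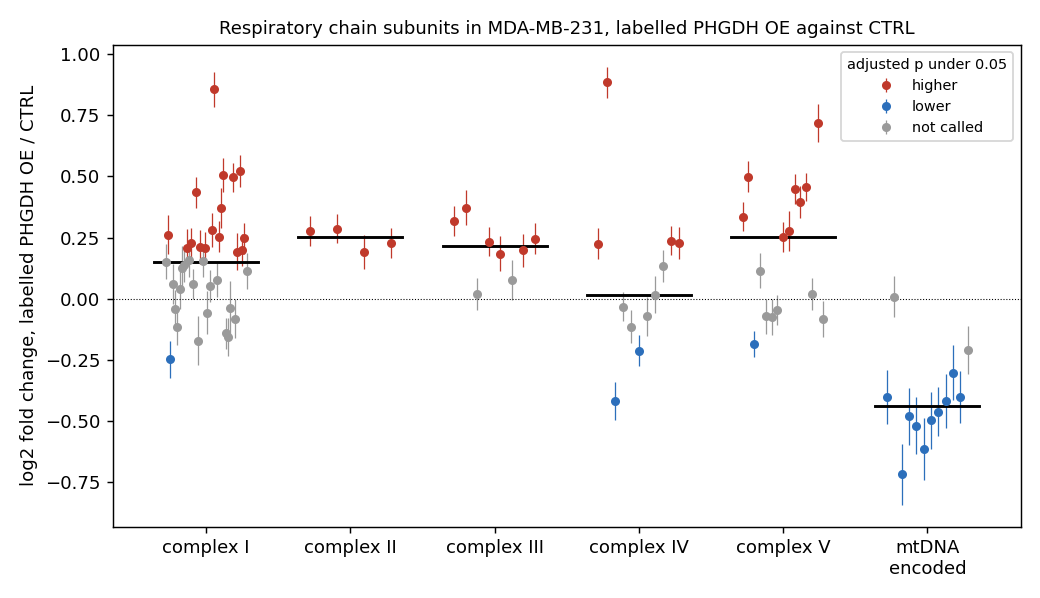
Log2 fold change (y axis, libraries labelled PHGDH OE over CTRL) of each tested subunit gene in MDA-MB-231 by complex, with the mitochondrially encoded subunits at the right. Points are genes with their standard error, coloured by call, and black lines are medians, 0.25 in complexes II and V and -0.44 for the mitochondrially encoded genes.

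TCA cycle genes were higher in 8 and lower in 2 of 16 in MDA-MB-231. CS, citrate synthase, averaged 310.0 CPM in the libraries labelled PHGDH OE and 192 CPM in CTRL (log2 fold change 0.69, edgeR adjusted p = 1.95e-09). PPARGC1A, a coactivator of mitochondrial genes, averaged 10.8 CPM in the libraries labelled PHGDH OE and 5.5 CPM in CTRL (log2 fold change 0.98, edgeR adjusted p = 5.91e-06), among 5 higher and 1 lower of 13 biogenesis factors. Complex I assembly factors were higher in 7 and lower in 1 of 16. Those of complex II were higher in 0 and lower in 1 of 4, and those of complex III higher in 2 and lower in 1 of 6. Complex IV assembly factors were higher in 5 and lower in 4 of 21, and those of complex V higher in 2 and lower in 0 of 3.

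Of 74 genes tested in both replicated experiments, Atp5s and Atp5sl included, 9 were higher in both, 0 lower in both, 2 higher in shPHGDH 4T1 and lower in the libraries labelled PHGDH OE (Cox6c and Cox7a2), and 13 the reverse. The 9 were Ndufb9, Sdha, Sdhd, Uqcrc1, Uqcrfs1, Cox5a, Cox8a, Atp5g2 and Atp5g3. Among the 13 were Ndufa13, Ndufc2, Sdhb, Sdhc, Cox4i1 and Atp5b. Counted apart, 19 of 74 were higher and 22 lower in the knockdown, and 40 of 76 higher and 4 lower in MDA-MB-231. Joint counts depend on these separate counts, and the share over all genes was not computed. They are therefore a description and not a result about these genes. PHGDH was lower in the first-named libraries of both experiments.

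Co-culture with Bend3 moved single subunits of 4T1 in both directions. With 1 library per group there is no replicate check and no test, and intervals cover counting error only. Of 72 subunits compared, 11 were at least 1.5-fold higher and 7 at least 1.5-fold lower in 4T1 grown with Bend3 against 4T1 alone, while 48.3% of all genes compared passed that limit, 26.7% higher and 21.6% lower. Uqcrh, the hinge protein of complex III, had 430.0 CPM in 4T1 grown with Bend3 and 98.7 CPM in 4T1 alone (ratio 4.36, 95% exact interval 3.92 to 4.85). Uqcrq, of the same complex, had 162 CPM in 4T1 grown with Bend3 and 500.0 CPM in 4T1 alone (ratio 0.324, interval 0.297 to 0.353). Atp5k, subunit e of complex V, had a ratio of 2.44 and Ndufa4 one of 2.38. Atp5b had 747 CPM in 4T1 grown with Bend3 and 1219 CPM in 4T1 alone (ratio 0.612). With library totals, 12 rather than 7 passed the lower limit, and the share of all genes passing it then is not given. Ratios lay above 1 for 40 subunits and below 1 for 32 with TMM scaling, and for 36 and 36 with library totals. Over all genes, 47.1% lay below 1 with TMM scaling and 52.3% with library totals. Mitochondrially encoded subunits summed to 58520 CPM in 4T1 grown with Bend3 and 32619 CPM in 4T1 alone. Of the 13 genes in this sum, only 7 averaged 5 CPM or more in each co-culture comparison. Endothelial markers summed to 168 CPM in 4T1 grown with Bend3 and 76.9 CPM in 4T1 alone, and their part in these ratios was not tested.

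Fewer subunits passed the limit in EMT6.5. Of 72, 1 was higher and 2 lower in EMT6.5 grown with Bend3 against EMT6.5 alone, where 30.7% of all genes passed, 14.0% higher and 16.7% lower. Ndufs3, a core complex I subunit, had 16.8 CPM in EMT6.5 grown with Bend3 and 8.35 CPM in EMT6.5 alone (ratio 2.01, interval 1.43 to 2.85). Over all subunits, 35 ratios lay above 1 and 37 below (median ratio 0.983), while 51.5% of all genes compared lay below 1. In complex IV, 10 of 11 lay below 1 (median ratio 0.867), whereas 20 of 34 in complex I and 9 of 15 in complex V lay above 1. Fibroblast markers summed to 1905 CPM in EMT6.5 grown with Bend3 and 3058 CPM in EMT6.5 alone, and Col1a1 and Col1a2 made up most of both sums. Pdgfrb went the other way, with 87.8 CPM in EMT6.5 grown with Bend3 and 24.8 CPM in EMT6.5 alone, as did Pdgfra (13.5 and 10.2 CPM). The part of these markers in the ratios was not tested. Mitochondrially encoded subunits summed to 60861 CPM in EMT6.5 grown with Bend3 and 42612 CPM in EMT6.5 alone.

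In Bend3, most subunits lay below 1 with either partner. Both comparisons share the library of Bend3 alone, so their values are given side by side and not as 2 results. Of 73 subunits, 64 had a ratio below 1 in Bend3 grown with 4T1 (median ratio 0.854), and 59 in Bend3 grown with EMT6.5 (median ratio 0.871). Over all genes compared, 49.3% had a ratio below 1 in Bend3 grown with 4T1 and 50.2% in Bend3 grown with EMT6.5. With library totals, 64 of 73 lay below 1 in Bend3 grown with 4T1 and 56 in Bend3 grown with EMT6.5 (median ratios 0.857 and 0.895). Past 1.5-fold, 0 were higher and 6 lower in Bend3 grown with 4T1, and 0 higher and 5 lower in Bend3 grown with EMT6.5, while 17.4% of all genes passed in the comparison with 4T1 (9.34% higher, 8.07% lower) and 17.1% in that with EMT6.5 (8.62% higher, 8.49% lower). Atp5k had 354 CPM in Bend3 grown with 4T1 and 350.0 CPM in Bend3 grown with EMT6.5, against 592 CPM in Bend3 alone (ratios 0.597 and 0.591). Ndufb10 had 48.7 CPM in Bend3 grown with 4T1 and 41.2 CPM in Bend3 grown with EMT6.5, against 73.1 CPM in Bend3 alone. Mitochondrially encoded subunits summed to 40948 CPM in Bend3 grown with 4T1 and 41099 CPM in Bend3 grown with EMT6.5, against 47528 CPM in Bend3 alone. Epithelial markers summed to 49.9 CPM in Bend3 grown with 4T1 and 8.08 CPM in Bend3 grown with EMT6.5, against 2.14 CPM in Bend3 alone. Fibroblast markers summed to 11.2 CPM in Bend3 grown with 4T1 and 37.7 CPM in Bend3 grown with EMT6.5, against 8.1 CPM in Bend3 alone. Leukocyte markers, nearly all of them Cd68, summed to 318 CPM in Bend3 grown with 4T1 and 249 CPM in Bend3 grown with EMT6.5, against 458 CPM in Bend3 alone. The part of these markers in the ratios was not tested.

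**Figure D5:**
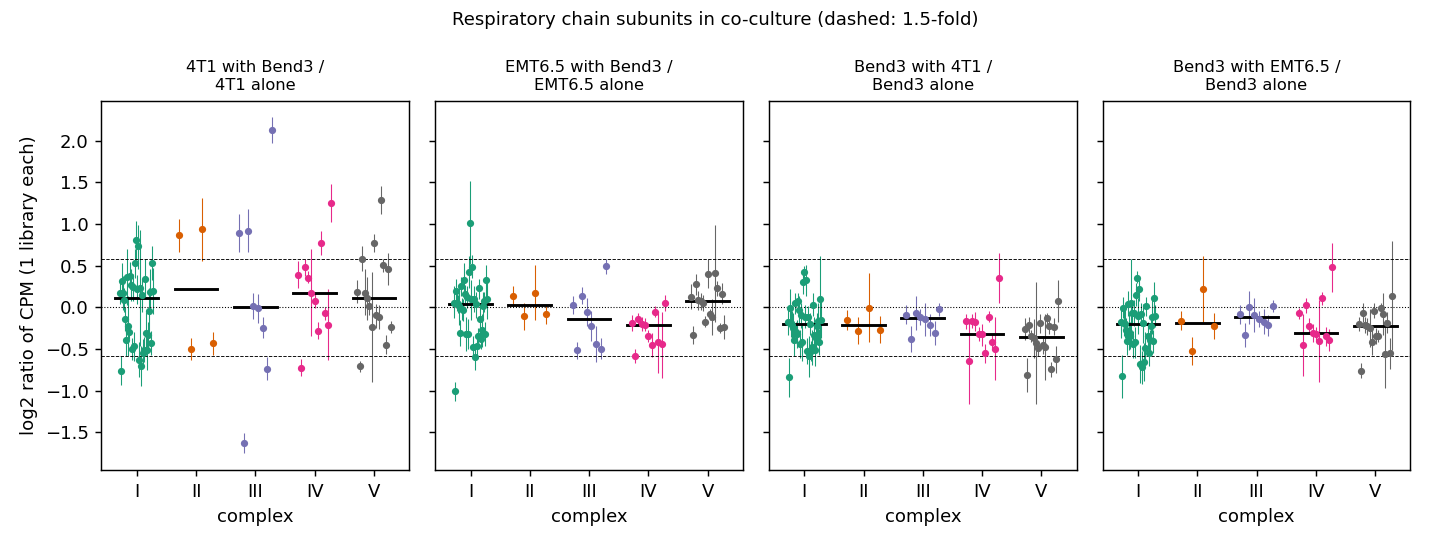
Log2 ratio of CPM (y axis) for each subunit gene by complex (x axis), co-culture over the same line alone, 1 library each, with 95% exact counting intervals and medians as black lines. In 4T1 the ratios spread from 0.324 to 4.36, whereas in Bend3 most lie below the line of no change with either partner (64 and 59 of 73).

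Grown alone, the lines differed in single subunits more than in the sum. Complexes I to V summed to 17011 CPM in Bend3, 14384 CPM in 4T1 and 15688 CPM in EMT6.5, but with library totals the order changed, to 15671 CPM in EMT6.5, 14943 CPM in Bend3 and 14858 CPM in 4T1. Per kilobase of exon, the median level was highest in complex IV and lowest in complex II in all 7 co-culture libraries, for example 480.2 and 68.9 CPM per kilobase in Bend3 alone. Complex III exceeded complex V in the 3 Bend3 libraries (259 and 185 CPM per kilobase in Bend3 alone), and complex V exceeded complex III in the 4 tumour libraries (222 and 147 in 4T1 alone). Past 1.5-fold, 28 subunits were higher and 4 lower of 73 in Bend3 against 4T1, where 65.1% of all genes passed. In Bend3 against EMT6.5, 10 were higher and 4 lower of 73, where 60.8% passed, and in 4T1 against EMT6.5, 2 were higher and 20 lower of 72, where 54.8% passed. Subunits thus passed less often than all genes, whose shares by direction were not computed here. Ratios lay below 1 for 28.8% of subunits and 49.6% of all genes in Bend3 against 4T1. The shares were 37.0% and 50.8% in Bend3 against EMT6.5, and 65.3% and 52.1% in 4T1 against EMT6.5. Chosen after the values were seen, Ndufa8, a complex I subunit, had 598 CPM in Bend3 alone, 123 CPM in 4T1 alone and 157 CPM in EMT6.5 alone. Ndufb9 had 186 CPM in Bend3, 654 CPM in 4T1 and 226 CPM in EMT6.5. Of the c-subunit genes, Atp5g1 had 27.1 CPM in Bend3, 6.97 CPM in 4T1 and 0.913 CPM in EMT6.5, while Atp5g3 took 96.3% or more of the c-subunit CPM in each. That share was lower in the shSCR libraries of the 4T1 knockdown, 85.5% to 87.0%, with Atp5g1 at 16.1 to 17.5 CPM. The cause of this difference between the 4T1 libraries was not tested. Multiply aligned entries were 48.2% to 55.3% of all entries in these tables, against 3.54% to 3.70% in MDA-MB-231, and their part in the levels of subunits with near-identical copies was not tested.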

How the data were processed

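Raw counts per gene were used as the authors deposited them. Per the labels' protocols, RNA was taken with TRIzol, stranded mRNA libraries were made, and co-cultured cells were sorted by FACS first. Per the submitters' processing notes, Trim Galore 0.5.0, HISAT2 2.1.0 and HTSeq were used, with GRCm38 for mouse. The human build and the counting settings, strand included, are not given in these sources, so reads of overlapping genes may not be told apart. The knockdown table held 10 further columns, not used here. CTRL columns of MDA-MB-231 are named SCR in the table.

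Members and lists were chosen with earlier results of these data known. Subunits were named by a rule on call, level and size, plus fixed core genes: up to 3 rises and 3 falls per complex among called genes averaging 10 CPM or more whose groups do not overlap. For subunits named by that rule, the lack of overlap follows from the choice and adds no support. Genes outside the rule are given as short lists, and some were chosen after their values were seen. The replicated experiments were fitted with edgeR 4.0.16 in R 4.3.3 (TMM scaling, default low-count filter, quasi-likelihood F-test, Benjamini-Hochberg adjusted p under 0.05 over all genes tested). Standard errors (SE) are the absolute log2 fold change divided by the square root of the F statistic, and so are approximate. DESeq2 1.42.0 was an alternative. The procedure was tested on simulated data. Co-culture ratios are of TMM-scaled CPM, for genes averaging 5 CPM or more, with 95% exact intervals that cover counting error only. Positions came from GENCODE on GRCm38, which held 95.7% of the knockdown symbols. The labels do not say that replicate numbers pair the libraries, so no pairing was used. Same-numbered replicates did not clearly deviate together, which with 3 libraries per group does not exclude pairing. Depth per library is given in the report. The promoter motifs were chosen with results known, and both forms of the YY1 motif that were searched are reported. The values of 1 subunit in EMT6.5 are not reported here.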

Additional observations from a re-analysis of the deposited data

Results flagged for a closer look

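Ndufv3, an accessory subunit of complex I, moved in opposite directions in the 2 tumour lines. Its ratio was 1.75 in 4T1 grown with Bend3 against 4T1 alone, and 0.661 in EMT6.5 grown with Bend3 against EMT6.5 alone. Each ratio rests on 1 library per group, and the difference between them was not tested.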

How the results depend on the processing

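In the 4T1 knockdown, 40 subunits were called, 19 higher and 21 lower. The lower count fell to 11 with lane in the model, 12 on lane 6 only and 10 with DESeq2. Over all genes, lower calls also fell, from 3421 to 2791 with lane in the model, 2834 on lane 6 only and 2552 with DESeq2. At a further limit of 1.2-fold, 11 subunits were called, 9 higher and 2 lower, against 2028 higher and 1945 lower of all 11568 genes. Leaving out each knockdown library in turn gave 32 to 42 subunits called, 18 to 20 higher and 13 to 22 lower. Median log2 fold changes moved to 0.097 (library totals) and 0.088 (neighbours subtracted, added after seeing the data) in complex II, and to 0.110 with lane in the model or lane 6 only in complex V, where leaving out each library gave 0.045 to 0.106. In complex III they were -0.054 (library totals), 0.035 (lane in the model), 0.036 (lane 6 only) and 0.023 (neighbours subtracted), so this median has no stable sign. In MDA-MB-231 (42 called, 38 higher and 4 lower), 7 were lower with library totals, and 20 were called at 1.2-fold, 19 higher and 1 lower; leaving out each library gave 34 to 43 called, 30 to 38 higher and 2 to 7 lower. At 2-fold in co-culture, 4 passed in 4T1 (3 higher, 1 lower), 2 in EMT6.5 (1 higher, 1 lower), and 0 in Bend3 with either partner. With library totals, 12 were lower in 4T1 at 1.5-fold. The shares of all genes passing under these settings are not given, so the counts are a description. With library totals, the sums over complexes I to V were 14943 CPM in Bend3 alone, 14858 CPM in 4T1 alone and 15671 CPM in EMT6.5 alone. The cause of these shifts was not tested. With replicate number as a block, 36 were called in the knockdown and 41 in MDA-MB-231. Same-numbered deviations correlated between -0.0546 and 0.0381, and different-numbered ones between -0.0511 and 0.0576. With 3 libraries per group, such values cannot show whether the numbers pair the libraries, and the labels do not say. Of 578 values of single subunits under alternatives, 547 kept their call and direction, 27 lost the call and 4 gained it. Depth limits co-culture values of low genes such as Atp5g1.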
